A study of Arabidopsis thaliana with 12 samples.

Results

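The transcripts described here are 42 named Arabidopsis genes whose array signal, after quantile normalization, was lower in the stn7stn8 double mutant than in wild type (WT). On the values as deposited, 9 of the 42 met the same criteria. STN7 and STN8 are protein kinases of the chloroplast thylakoid membrane. STN7 phosphorylates the light-harvesting antenna, which lets the antenna move between the photosystems, and STN8 phosphorylates core proteins of photosystem II, which is linked to the repair of that complex. Most of the proteins that a chloroplast uses are encoded in the nucleus, made in the cytosol and imported, so their transcripts can be followed in total RNA of the cell.

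The series holds 12 arrays of total RNA, 6 titled WT and 6 titled stn7stn8, all of ecotype columbia 0. The groups rest on the titles, since the source field names WT for every array, and the labels give no organ, age or light condition. Neither STN7 (AT1G68830) nor STN8 (AT5G01920) had a row with 1 gene, which left the genotype unchecked. Of the markers looked for, 0 of 5 for green tissue and 0 of 6 for seed, root and flower had such a row. Photosynthesis transcripts outside these marker lists did have rows. After quantile normalization, mean WT levels were 3.03 (log2) for the antenna gene LHB1B2 and 5.17 for the photosystem II subunit PSBW. The median WT level of rows with 1 gene and enough values was -1.40. In stn7stn8 LHB1B2 differed by 0.26 and PSBW by -0.33. Green-tissue transcripts were thus bright in WT, but the organ was not identified. The stn7stn8 arrays 4 and 5 held the same values and were counted once, as array 4, which left 6 WT and 5 stn7stn8 arrays. As deposited, array totals lay between 3586 and 3682, and 145 to 192 rows of an array were listed at 0.

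The members were chosen from these arrays by their values. Of 3439 rows, 692 had exactly 1 gene in the platform annotation, and 645 of those had at least 4 values above 0 in each group. In 80 of the 645 the quantile-normalized mean of log2 intensity was lower in stn7stn8 by 0.5 or more. In 50 of those 80, or 7.75% of the 645, every stn7stn8 value also lay below every WT value, while in the other 30 the groups overlapped. Of the 50, 8 named genes are left out here, and the 42 members remain. The same criteria held in 11.0% of all 3229 rows with enough values, and the mirrored criteria, higher in stn7stn8, held in 72 of the 645 rows, or 11.2%. Because the difference between the groups chose the members, the values below describe them and no test of that difference is given. Lower signal from whole tissue can mean fewer cells of a type or less RNA per cell, and these cannot be told apart.

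The members' log2 differences ran from -1.63 to -0.51 with a median of -0.75, where the median of all 645 rows was 0.11. On the linear scale they stood at 0.323 to 0.700 of the WT level, and 6 were below 0.5 of it. By function they were a mixed group. From general knowledge of Arabidopsis, a role or protein family was assigned to 30 of the 42. The other 12 were left unassigned, which does not mean that no family is known for them. Those with an assignment are grouped below. The assigned members included parts of photosystem II, enzymes of sulfur and sucrose metabolism, nucleotide-binding oxidoreductases and proteins that handle DNA and RNA in organelles. Metal-binding and phosphorylation-linked proteins, and proteins of membranes, nuclear pores and microtubules, were among them too. No family of this grouping held more than 4 members. The grouping was made after the values were known, so it supports no statement about which functions fell.

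**Figure D1:**
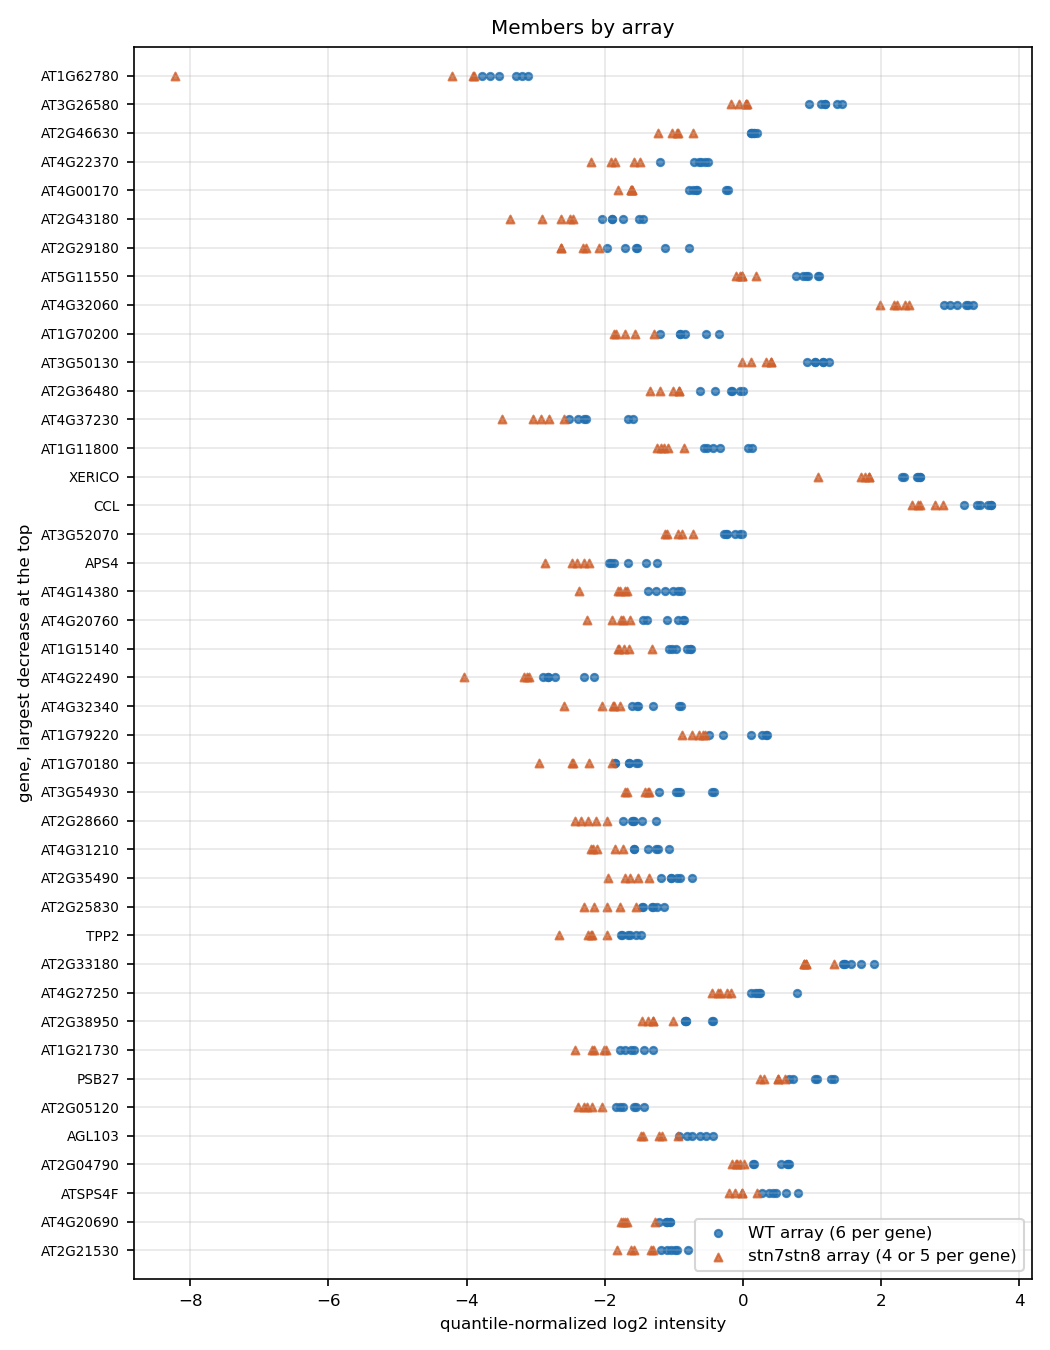
Quantile-normalized log2 intensity (x axis) of the 42 members (y axis, largest decrease at the top), with 1 point per array, circles for the 6 WT arrays and triangles for the 4 or 5 stn7stn8 arrays with a value. The groups are separate in every row because the rule required it, and the space between them runs from 0.0029 in AGL103 to 0.90 in AT3G26580.

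Photosystem II, the complex that carries the targets of STN8, was represented by 2 members. PSB27 (AT1G03600) encodes a lumenal factor that helps to assemble and repair photosystem II. Its WT arrays had a lowest value of 0.66, a median of 1.05 and a highest value of 1.31 (log2). Its stn7stn8 arrays 1, 2, 3, 4 and 6 were at 0.50, 0.51, 0.30, 0.25 and 0.60. The mean fell by 0.58 ± 0.13 (log2, SE, n = 6 and 5), but the space between the groups was only 0.063, since WT arrays 5 and 6 lay at 0.73 and 0.66. AT4G37230, a member of the PsbO family, whose main forms hold the manganese cluster of water oxidation in place, was dim. Its WT values ran from -2.52 through a median of -2.29 to -1.59, and its stn7stn8 values were -3.49, -2.80, -3.03, -2.92 and -2.59, a difference of -0.84 ± 0.22. The groups of AT4G37230 were 0.065 apart.

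The wider photosynthesis lists, written with earlier results of these data known, were thinly covered, as 8 of their 48 genes had a row that could be tested. Tested across all 3229 rows with limma, 2 of the 8 were higher and 3 lower at an adjusted p under 0.05, where 23.7% of all rows were called higher and 19.6% lower. The higher ones were PSBY, a small subunit of photosystem II (log2 difference 1.09, adjusted p = 3.45e-05, limma), and CHLM, a methyltransferase of chlorophyll synthesis (0.51, adjusted p = 0.00104, limma). The lower ones were PSB27, which the rule chose on the same values, the photosystem I subunit PSAN (-0.69, adjusted p = 0.0248, limma) and the Calvin cycle kinase PRK (-0.52, adjusted p = 0.0101, limma). PSAN and PRK passed the size criterion and are no members because their groups overlapped. The photosystem II subunit PSBW (-0.33, adjusted p = 0.0685, limma), the geranylgeranyl reductase AT1G74470 (-0.27, adjusted p = 0.0807, limma) and the Calvin cycle phosphatase SBPASE (0.16, adjusted p = 0.51, limma) did not pass.

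Genes tied to hormone levels and to the clock were among the brightest members. XERICO (AT2G04240) encodes a RING-H2 finger protein, and its overexpression raises abscisic acid, the hormone of water stress. XERICO lay at 2.30, 2.53 and 2.56 (lowest, median and highest, log2) in WT. In stn7stn8 it was at 1.09, 1.71, 1.82, 1.77 and 1.82. Array 1 was thus far below the other mutant arrays, but all 5 lay at least 0.48 below WT, and the mean fell by 0.83 ± 0.15. CCL (AT3G26740), whose transcript is known for a stability that the circadian clock controls, was brighter still, at the 99.2 percentile of WT level among the 645 rows. Its WT values spanned 3.19 to 3.59 with a median of 3.49, and its stn7stn8 values were 2.77, 2.90, 2.44, 2.56 and 2.53. The CCL mean fell by 0.82 ± 0.11, to 0.568 of WT.

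In primary metabolism, members stood at the entry of sulfate assimilation and at the synthesis of sucrose. APS4 (AT5G43780) is an ATP sulfurylase, the enzyme that activates sulfate. Its WT arrays lay at -1.94, -1.76 and -1.25 (lowest, median, highest) and its stn7stn8 arrays at -2.39, -2.48, -2.86, -2.31 and -2.23. The APS4 difference was -0.78 ± 0.16, with the mutant at 0.581 of WT. ATSPS4F (AT4G10120), a sucrose-phosphate synthase, was one of the members closest to the threshold, with a difference of -0.53 ± 0.10. Its WT values were 0.28, 0.45 and 0.80 and its stn7stn8 values -0.013, 0.20, -0.21, -0.12 and -0.0095, so mutant array 2 came within 0.077 of the lowest WT array. AT2G43180, of a family related to phosphoenolpyruvate carboxylase and isocitrate lyase, changed more, by -1.02 ± 0.19. In WT it lay between -2.04 and -1.45 with a median of -1.81. In stn7stn8 it was at -2.47, -2.50, -3.37, -2.91 and -2.63, with array 3 the lowest.

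A set of 3 members carries the nucleotide-binding fold of NAD(P)- or FAD-dependent oxidoreductases, and their differences were close to each other. AT4G20760 differed by -0.76 ± 0.15, AT1G15140 by -0.76 ± 0.11 and AT4G27250 by -0.60 ± 0.11. For AT1G15140, WT lay at -1.07, -0.89 and -0.75, and stn7stn8 at -1.80, -1.81, -1.31, -1.72 and -1.65, with array 3 nearest to WT. For AT4G20760 the same array was the lowest, at -2.25, while the other mutant arrays lay from -1.90 to -1.63. For AT4G27250 array 3 lay inside the mutant range, at -0.34 between -0.44 and -0.17, with WT at 0.12, 0.21 and 0.78 (lowest, median, highest).

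Gene expression in organelles was represented by 4 members. AT1G70200, a protein with an RNA-recognition motif that takes part in plastid ribosomal RNA processing, had WT values of -1.19, -0.87 and -0.34 and stn7stn8 values of -1.29, -1.84, -1.56, -1.87 and -1.71. Its mean fell by 0.86 ± 0.16, and mutant array 1 came within 0.094 of the lowest WT array. AT1G79220 is of the mTERF family, which binds nucleic acids in plastids and mitochondria. It fell by 0.73 ± 0.16, from WT values between -0.50 and 0.35, and its lowest WT arrays were 5 and 6, at -0.29 and -0.50. AT4G31210, a type IA DNA topoisomerase, differed by -0.67 ± 0.13 and AT2G25830, related to the bacterial regulator YebC, by -0.64 ± 0.14. The groups of these 4 genes were 0.057 to 0.15 apart.

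Metal-binding and phosphorylation-linked proteins gave 4 members. AT4G32060, known as MICU, is an EF-hand protein that regulates calcium uptake into mitochondria. It was bright, at 2.91, 3.16 and 3.32 in WT (lowest, median, highest), and lay at 2.35, 1.98, 2.40, 2.23 and 2.18 in stn7stn8. Its mean fell by 0.91 ± 0.099, to 0.533 of WT, and the groups were 0.51 apart. AT2G28660, of a copper chaperone family, differed by -0.69 ± 0.10. AT3G54930, a regulatory subunit of protein phosphatase 2A, also differed by -0.69, with an SE of 0.15. AT2G21530, which has a forkhead-associated domain that binds phosphorylated threonine, was the last member inside the threshold, at -0.51 ± 0.11.

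Among proteins of membranes, nuclear pores and microtubules, AT4G00170 differed most. It belongs to the VAMP-associated proteins, which anchor contacts of the endoplasmic reticulum with other membranes. Its WT arrays were at -0.77, -0.67 and -0.22 (lowest, median, highest), the highest being arrays 5 and 6. Its stn7stn8 arrays were at -1.61, -1.62, -1.62, -1.60 and -1.81, so 4 of 5 lay between -1.62 and -1.60. The AT4G00170 difference was -1.10 ± 0.11, with the mutant at 0.468 of WT. The nucleoporin AT2G05120 differed by -0.58 ± 0.087 and the kinesin AT1G21730 by -0.58 ± 0.11. Lipid-linked members were AT2G35490, a fibrillin of plastid lipid bodies, at -0.65 ± 0.12, and AT4G22490, of the lipid transfer protein family, at -0.74 ± 0.26. For AT4G22490 stn7stn8 array 1 was listed at 0, which left 4 mutant values.

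Regulators of transcription gave smaller differences. AGL103 (AT3G18650), a MADS-box protein, lay at -0.93, -0.68 and -0.43 in WT and at -1.21, -1.17, -1.47, -0.94 and -1.44 in stn7stn8. The mean fell by 0.57 ± 0.12, and mutant array 4 came within 0.0029 of the lowest WT array, the narrowest space of the 42. AT2G38950, of the jumonji family of histone demethylases, differed by -0.59 ± 0.11. TPP2 (AT4G20850), tripeptidyl peptidase II, which trims peptides after the proteasome, had WT values of -1.77, -1.65 and -1.48 and stn7stn8 values of -2.66, -2.19, -1.96, -2.24 and -2.20. Its mean fell by 0.61 ± 0.12.

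Repeat and domain families held several of the clearest separations. AT3G26580, a tetratricopeptide repeat protein, had the widest space between the groups of all members, 0.90. Its WT arrays were at 0.96, 1.19 and 1.43 and its stn7stn8 arrays at -0.055, -0.17, 0.064, 0.040 and 0.043, and the mean fell by 1.23 ± 0.082 (0.428 of WT). AT5G11550, with armadillo repeats, lay at 0.76, 0.93 and 1.0954 in WT and at -0.019, -0.019, 0.19, -0.096 and -0.038 in stn7stn8, a difference of -0.94 ± 0.071. AT3G50130, of the plant family with domain DUF247, differed by -0.85 ± 0.097. AT4G32340, another tetratricopeptide repeat protein, differed by -0.73 ± 0.19. In 7 members, among them AT3G26580, AT5G11550, AT3G50130, AT4G00170 and AT4G32060, the space between the groups was wider than the range within either group. The rule required separate groups, so this count only describes the members. The share among all 645 rows is not given here.

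The 12 members given no role include the largest difference of all, and that value rests on 1 array. AT1G62780 was dim, at the 6.20 percentile of WT level, with WT values of -3.78, -3.41 and -3.11. In stn7stn8 array 1 was listed at 0 and arrays 2, 3, 4 and 6 were at -4.22, -8.22, -3.89 and -3.90. The mean difference was -1.63 ± 1.06, and without array 3 it was -0.58. AT2G46630 had the tightest WT group, at 0.11, 0.14 and 0.20, with stn7stn8 at -0.94, -0.73, -1.03, -0.96 and -1.23 and a difference of -1.12 ± 0.083. AT4G22370 lay at -1.20, -0.62 and -0.50 in WT and at -1.85, -1.50, -2.21, -1.58 and -1.90 in stn7stn8, a difference of -1.10 ± 0.16. AT2G29180 had the widest WT group, from -1.97 to -0.78 with a median of -1.54, against -2.63, -2.64, -2.09, -2.31 and -2.28 in stn7stn8 (-0.95 ± 0.20). The others were AT2G36480, AT1G11800, AT3G52070, AT4G14380, AT1G70180, AT2G33180, AT2G04790 and AT4G20690, with differences between -0.85 and -0.52.

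At the threshold of -0.5 the members just inside were AT2G21530 at -0.51, AT4G20690 at -0.52 and ATSPS4F at -0.53. Just outside, with groups that did not overlap, lay AT1G51350 at -0.49, AT2G37580 at -0.48 and chr31 (AT1G05490) at -0.47. In all, 20 rows with 1 gene were lower without overlap by less than the threshold. A complete loss of signal would have escaped the rule, which needs 4 values above 0 in each group. Of the 47 rows with 1 gene that lacked these values, 0 were above 0 in every WT array and at 0 in every stn7stn8 array.

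**Figure D2:**
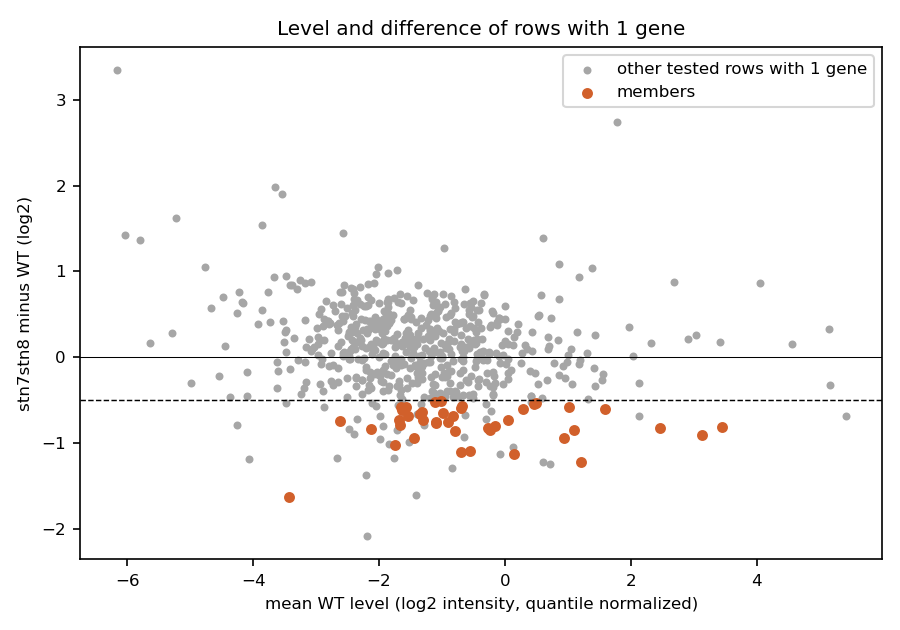
Mean WT level (x axis, log2 intensity) against the difference stn7stn8 minus WT (y axis, log2) for the 645 rows with 1 gene, with the 42 members coloured and the threshold of -0.5 dashed. The members lie at or below the line across most of the range of levels, from -3.43 to 3.46 in WT.

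The rule used the WT values, so it favoured rows that were high in WT, and the mirrored rule favoured rows that were low there. The members' median WT level was -0.81 (log2) against -1.40 for all 645 rows and -1.50 for the 72 genes of the mirrored rule, and 31 of the 42 lay above the middle of the 645. Per array, the members' median was between -0.93 and -0.64 in WT and between -1.64 and -1.50 in stn7stn8, while that of all 645 rows lay from -1.44 to -1.36 and from -1.38 to -1.32. Within WT, arrays with consecutive numbers deviated together over the members. WT arrays 5 and 6 were the highest pair in 18 of the 42 members and the lowest pair in 7. The deviations of arrays 5 and 6 from the group mean had r = 0.74 across the 42 genes, which are not independent replicates. No such figures are given here for all 645 rows, so this pairing is not shown to be particular to the members. Without both arrays, 35 of the 42 met both criteria. Removing arrays can hardly make separate groups overlap, so this count bears mainly on the size criterion. Within stn7stn8 each array was the lowest of its group in 5 to 11 members, and no array was so in most of them. The deviations of stn7stn8 arrays 4 and 6 had r = 0.56 over the members, so mutant arrays deviated together too.

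The size of the decrease, and for 33 members whether the rule held, depended on how the arrays were brought to a common scale. The authors' values had similar array totals in the 2 groups, 3608 to 3682 in WT and 3586 to 3660 in stn7stn8, but different medians. The groups thus differed in the shape of their distributions more than in total signal. The median over the 645 rows rose from between -1.78 and -1.50 in the WT arrays to between -1.09 and -1.02 in the stn7stn8 arrays as deposited, a median difference of 0.57. The members' own median moved the other way on the same values, from between -1.09 and -0.95 in WT to between -1.30 and -1.19 in stn7stn8. Their median difference was -0.33 as deposited, and 38 of 42 were below 0. The exceptions AT1G21730, AT2G05120, AT4G20690 and AT2G21530 stood between 0.012 and 0.037. The rule chose the members on a rescaling of these same values, so a mostly negative sign is partly built in. With the deposited values 9 of the 42 met both criteria, where 16 of the 645 rows, or 2.48%, did, and 10 had groups that did not overlap, where 2.95% of the rows did. So 33 of the 42 are lower relative to the other rows of their array and do not meet the rule by their deposited signal.

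The 9 that met the rule as deposited met it under all 4 scalings. They were AT3G26580 (-1.08 as deposited), AT4G32060 (-1.09), CCL (-1.04), XERICO (-0.97), AT2G46630 (-0.76), AT5G11550 (-0.76), AT3G50130 (-0.71), AT4G00170 (-0.60) and AT2G33180 (-0.58). They were bright, at the 75.0 to 99.2 percentile of WT level. PSB27 gave -0.46 as deposited with overlapping groups, APS4 -0.19, AGL103 -0.096 and TPP2 -0.0079. With each array centred on its median 39 of the 42 met the rule, the exceptions being AT2G29180, AT4G37230 and AT1G70180. After cyclic loess 41 did, the exception being AT1G79220. Of all 645 rows, the 8 left-out genes aside, 75 met the rule after centring and 46 after cyclic loess. Adding the median intensity before the log2 step, which shrinks the differences of dim rows, gave a median difference of -0.37 with 12 of the 42 at -0.5 or below. It does not change the order of the values, so it says nothing about the separation of the groups.

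**Figure D3:**
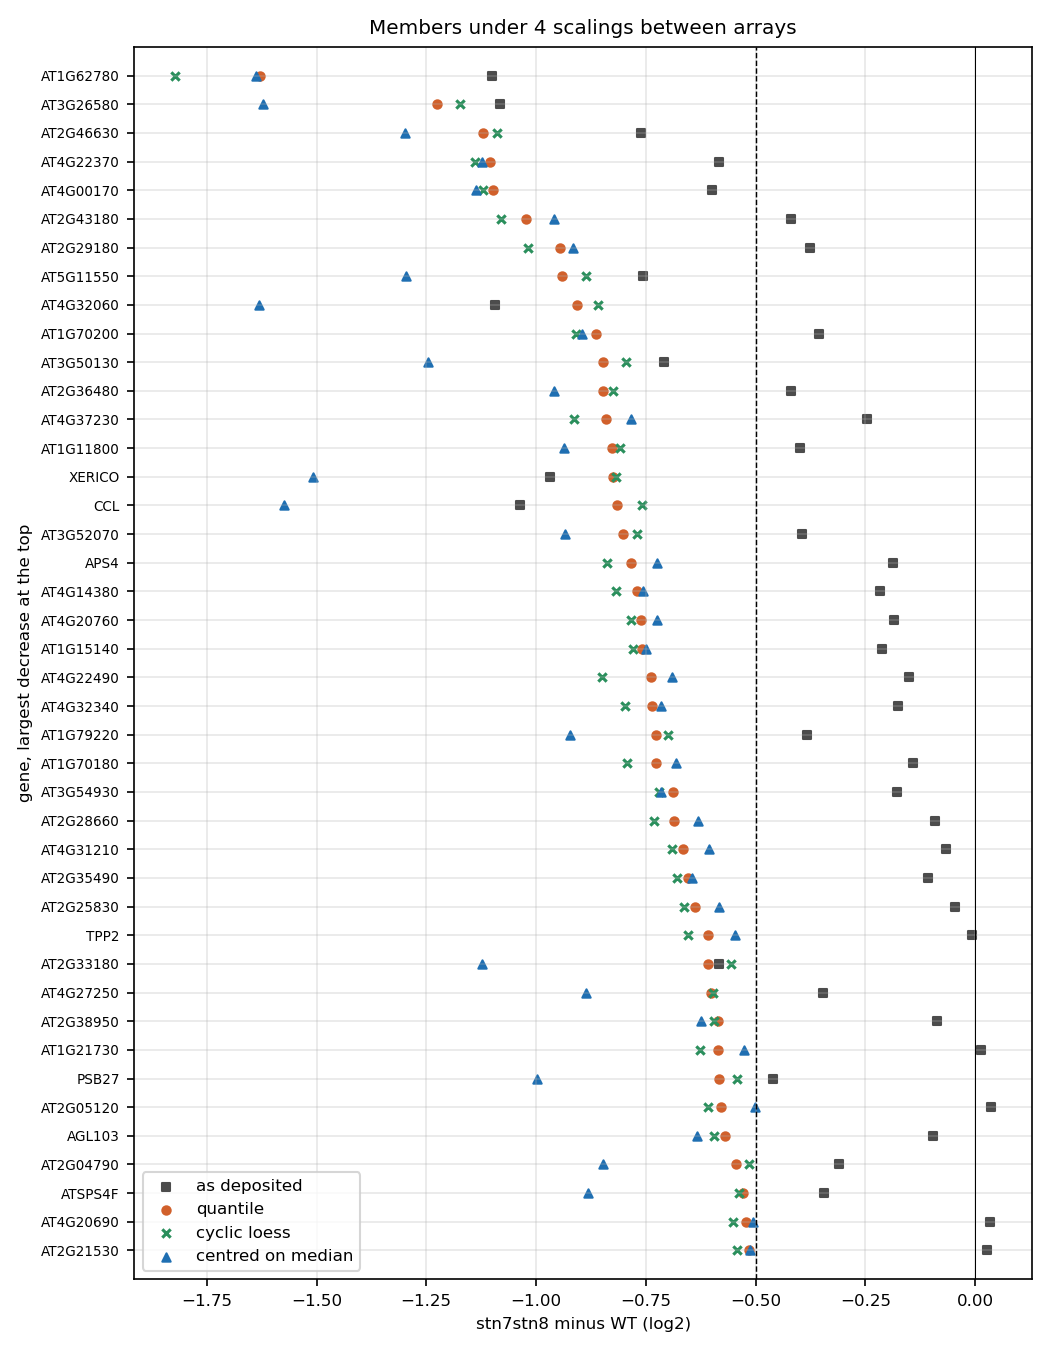
Difference stn7stn8 minus WT (x axis, log2) of each member (y axis, largest decrease at the top) under 4 scalings, as deposited (squares), quantile (circles), cyclic loess (crosses) and arrays centred on their medians (triangles); the dashed line is the threshold of -0.5. The squares reach the line for 11 of the 42 members and run from -1.10 to 0.037.

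The members lay on all 5 nuclear chromosomes but were unevenly spread over them, and the chromosome of a locus was not used by the rule. Chromosomes 2 and 4 held 13 members each, together 26 of 42 or 61.9%, while 237 of the 645 rows, or 36.7%, lay there. Among the 72 genes of the mirrored rule the share was 26.4%. Chromosome 5 held 2 members, or 4.76%, against 19.7% of the 645 rows and 27.8% of the mirrored genes. With the 8 genes left out by name added back, 32 of 50, or 64.0%, lay on chromosomes 2 and 4. The share was between 56.0% and 63.6% when the genes were chosen under the other scalings or with the added intensity. STN7 is on chromosome 1 and STN8 on chromosome 5. These pairs of chromosomes were singled out after their values were seen, and the counts come from the same contrast that chose the members, so no test is given.

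**Figure D4:**
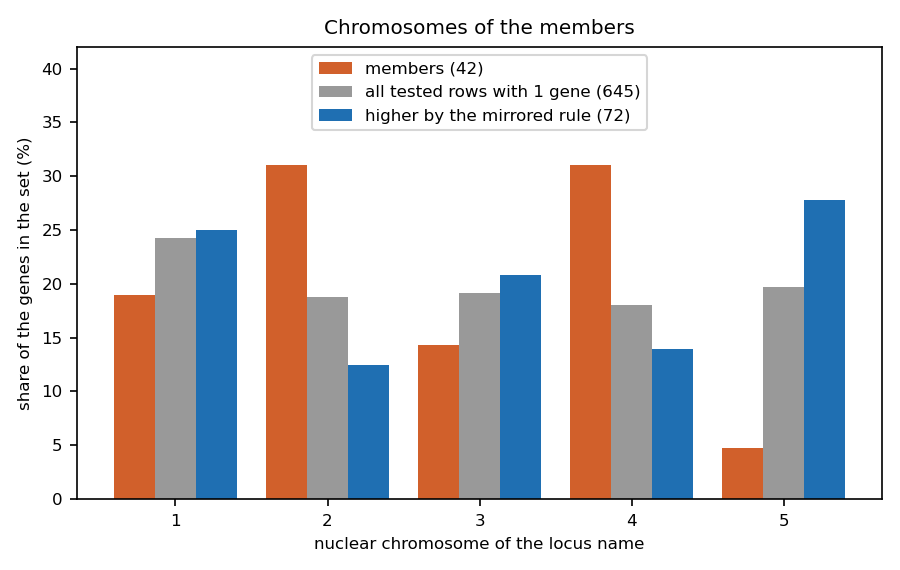
Share (y axis, %) of the genes of each set on nuclear chromosomes 1 to 5 (x axis), for the 42 members, all 645 tested rows with 1 gene and the 72 genes higher by the mirrored rule. The members' bars are highest on chromosomes 2 and 4, at 31.0% each, and lowest on chromosome 5.

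The chromosomes also differed over all tested rows with 1 gene. The median difference was 0.17 on chromosome 1 (157 rows), -0.091 on chromosome 2 (121 rows), 0.18 on chromosome 3 (123 rows), -0.11 on chromosome 4 (116 rows) and 0.31 on chromosome 5 (127 rows). Chromosomes 2 and 4 had the lowest medians as deposited too, at 0.34 and 0.28, where the others were at 0.63, 0.68 and 0.77. With the 50 rows that met both criteria removed, chromosomes 2 and 4 were at -0.0040 and -0.021 and the others between 0.18 and 0.31. Set against the WT mean, the median of chromosomes 2 and 4 was below that of chromosomes 1, 3 and 5 by 0.26 to 0.36 in each of the 5 stn7stn8 arrays. In the 6 WT arrays that gap was between -0.014 and 0.024, where values near 0 are set by taking the WT mean as the reference. WT level moved with the chromosome as well, with medians of -1.11 on chromosome 4 and -1.33 on chromosome 2 against -1.49 to -1.60 on the others, and its part in the result was not tested.

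**Figure D5:**
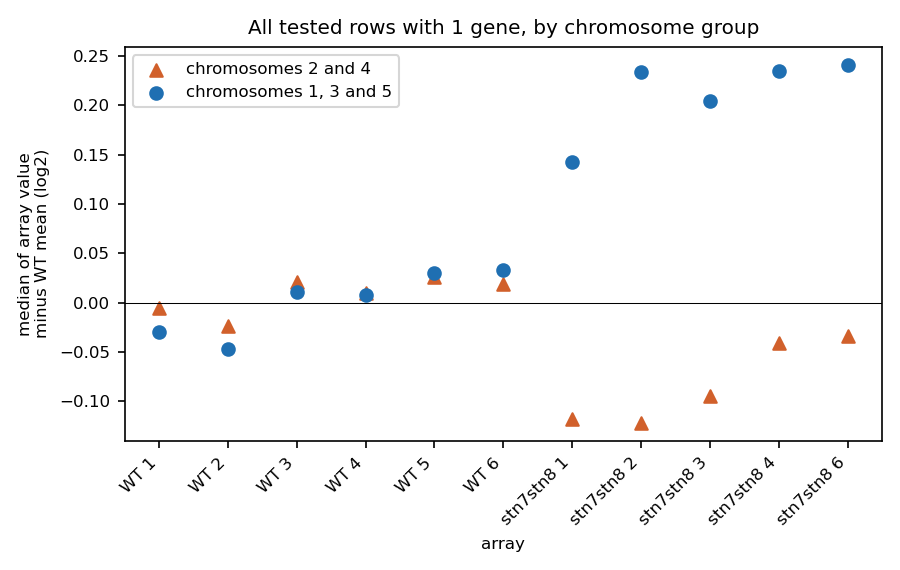
Median over rows with 1 gene of each array's value minus the WT mean of the row (y axis, log2), by array (x axis), for loci on chromosomes 2 and 4 (triangles) and on chromosomes 1, 3 and 5 (circles). The symbols nearly coincide in the 6 WT arrays, which the subtraction of their own mean sets near 0, and are 0.26 to 0.36 apart in the 5 stn7stn8 arrays.

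Few members were close neighbours. By gene order in the TAIR10.1 gene table, AT1G70180 (-0.73) and AT1G70200 (-0.86) had 1 protein-coding gene between them. AT4G20690 (-0.52), AT4G20760 (-0.76) and TPP2 (-0.61) lay in 1 stretch with 6 and 9 protein-coding genes between them. The 1 gene tested between AT4G20760 and TPP2, AT4G20820, was at -0.49. No other members had 10 or fewer protein-coding genes between them.

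A further 5 rows listed a member together with related genes, and they followed the member only in part. The row that lists AT2G43180 among 4 genes went from -1.29 ± 0.14 (SD, n = 6) to -2.03 ± 0.31 (n = 5) without overlap. The row with AT3G50130 among 3 genes went from 1.92 ± 0.28 to 1.30 ± 0.33, with overlap. The row with AT4G32340 among 4 genes moved the other way, from -1.27 ± 0.11 to -0.96 ± 0.23. The rows with AT2G35490 and AT1G21730 differed by -0.056 and 0.065. Which of the listed genes such a row measures is not known.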

How the data were processed

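Total RNA of 6 WT and 6 stn7stn8 arrays was analysed from the value table the authors deposited. Its values are intensities on a linear scale with 1 value per spot, never below 0. The labels name no array type, background correction or scaling, so the deposited intensities could already be normalized. The number of arrays limits the precision. Nothing in the labels says that replicates were separate plants, so errors and p-values cover only the spread between these arrays.

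Entries of 0 were treated as missing, the rest transformed to log2 and quantile normalized with limma 3.58.1 in R 4.3.3. Stn7stn8 arrays 4 and 5, equal to within 4.0e-10, were counted once. Limma (lmFit, eBayes, two-sided, Benjamini-Hochberg over 3229 rows) gave the background calls. Its fit and the selection rule were tested on simulated data, and the outcome is not given here. An SE is that of a difference of means from the 2 groups' own SDs.

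Genes were named from rows with 1 gene in the platform annotation, and 690 of 692 matched the TAIR10.1 gene table. A single name does not exclude signal from near-identical copies. All members are named. For the 10 with the largest difference and those with a gene symbol, each stn7stn8 value and the lowest, median and highest WT value are given. AT4G37230 and AT1G15140, outside this rule, are given likewise, chosen after their values were seen. The plan to sort genes by descriptions in the reference tables could not be carried out, since the tables used here hold none, so roles come from general knowledge and classes were set after the values were seen. The members and lists were chosen with earlier results of these data known. Alternatives changed the scaling, the handling of dim rows and zeros and the arrays used. Sequences and coordinates are not used here.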

Additional observations from a re-analysis of the deposited data

Results flagged for a closer look

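The WT and the stn7stn8 arrays of each of the 42 members made 84 groups of values. In 11 of these groups 1 array was far from the others by Dixon's criterion, where chance gives about 1 in 20 groups. The share over all 645 rows is not given here, so the count is not shown to be particular to the members. Stn7stn8 array 3 was that array in 4 of them. It was low for AT1G62780, at -8.22 against -4.22 to -3.89 in the other mutant arrays. It was high for AT5G11550 (0.19 against -0.096 to -0.019), for AT2G33180 (1.32 against 0.88 to 0.92) and for AT4G20690 (-1.28 against -1.76 to -1.67). Without it the difference of AT1G62780 went from -1.63 to -0.58, and those of AT5G11550, AT2G33180 and AT4G20690 were -0.99, -0.69 and -0.61.

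Stn7stn8 array 2 was low for AT4G14380 (-2.37 against -1.81 to -1.68) and for AT4G22490 (-4.04 against -3.17 to -3.10). Without it their differences were -0.65 and -0.51, in place of -0.77 and -0.74. Stn7stn8 array 1 was low for XERICO, at 1.09 against 1.71 to 1.82, and without it the XERICO difference was -0.69. Stn7stn8 array 6 was low for AT4G00170 (-1.81 against -1.62 to -1.60). Among WT arrays, array 4 was low for AT4G22370 (-1.20 against -0.71 to -0.50), array 5 was high for AT4G27250 (0.78 against 0.12 to 0.24) and array 2 was low for AT4G20690 (-1.21 against -1.11 to -1.06). Without WT array 5 the difference of AT4G27250 was -0.50, in place of -0.60.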

How the results depend on the processing

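With the 8 named genes left out, the rule chose 42 genes after quantile normalization, 11 from the values as deposited, 12 when a constant, the median intensity, was added ahead of log2, and 75 from arrays centred on their medians. Of the members themselves, 9 met it as deposited and 12 with the constant, and their median difference went from -0.75 to -0.33 and -0.37. As deposited, limma called 281 rows lower, in place of 632. With single arrays left out, 38 to 42 of the members met the rule. Those that then missed it at least once were AT2G04790, AT4G27250, ATSPS4F, AT2G21530 and AT4G20690. Removing a mutant array other than array 1 leaves AT1G62780 and AT4G22490 with too few values. Apart from the repeated normalization, leaving arrays out cannot make separate groups overlap. These counts therefore say little about the separation of the groups. Thresholds of -0.4 and -0.6 gave 53 and 33 rows. For the 17 genes with the largest differences or a gene symbol, 349 of 384 recomputed differences moved by less than the SD between arrays. The other 35 moved by more, and 0 changed sign. Most of the 35 came from the deposited values, the added constant and the centring on medians, while many settings only left arrays out. The 4 members above 0 as deposited were not among the 17 genes, so the pooled count understates the dependence on scaling. Same-numbered arrays of the groups deviated together with r from 0.0067 to 0.20, so the numbers were not taken as pairs. With the replicate number as a block, limma called 629 rows lower and the members' median was -0.73. With consecutive WT arrays, which deviated together, averaged to 3 values, limma called 467 rows lower. These averages keep the WT mean and cannot fall below the lowest WT value. All 42 members therefore had to meet the rule, and that count tells nothing. The chromosome counts and their alternatives were added after seeing the data.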
